A study of Mus musculus with 8 samples.

Results

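The Sall genes Sall1, Sall2, Sall3 and Sall4 encode the zinc finger transcription factors related to the spalt protein of Drosophila. They were chosen by gene symbol, as the probe sets annotated to exactly 1 of the 4 symbols, which gave 4 of the 18194 genes and 7 of the 45101 probe sets measured. Each gene was represented by its brightest probe set, the one with the highest mean over all 8 arrays, and its other probe set is given beside it. The mean level over all arrays was the measured value used in this choice. The family was taken up with the large rise of Sall4 already known from these data, so that rise is not independent support for anything below. RNA came from the mandibular arch, the embryonic tissue that forms the lower jaw, of C57BL/6J mouse embryos of undetermined sex at embryonic day 11.5. The 4 mutant samples were Wnt1-Cre;Alk5 fl/fl, and the 4 control samples were Alk5 fl/fl with no Cre driver named. All 8 thus carried the floxed Alk5 alleles, so what the driver does by itself cannot be told apart from what the deletion does. Alk5, or Tgfbr1, is a type I receptor for TGF-beta, and Wnt1-Cre removes it from neural crest cells. The mesoderm, epithelium, endothelium and blood of the arch lie outside that lineage.

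Sall proteins bind DNA through paired zinc fingers and mostly repress transcription, in part by recruiting the nucleosome remodelling and deacetylase complex (NuRD) through a short motif at their amino end. Sall4 is best known from embryonic stem cells and germ cells, where it helps keep cells undifferentiated, and from the limb and heart, since loss of a human SALL4 copy causes Duane-radial ray syndrome. Sall1 is needed for kidney formation in mice and is altered in human Townes-Brocks syndrome, and it also marks microglia among macrophages. Sall2 is expressed widely in the developing nervous system and acts in growth control, and Sall3 is required in mice for the palate and for cranial nerves.

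The arrays were comparable in level, with medians of 6.28 to 6.42 on the log2 scale. Mutant replicate 3 stood apart, with an SD over all probe sets of 2.42 against 2.52 to 2.56 on the others. Its correlations with the other arrays were 0.986 to 0.991, while pairs without it had 0.993 to 0.997. The labels do not say whether the samples of a group came from separate embryos or litters, and p-values here reflect spread that may be partly technical. With 4 arrays a group, precision is limited throughout. Tgfbr1 itself read 12.98 ± 0.0115 in mutants and 12.79 ± 0.0844 in controls (SD, n = 4 each) on its brightest probe set, a log2 fold change of 0.19. Its further probe sets, 1420893_a_at and 1420894_at, were also higher in mutants, at 0.51 and 0.30. None passed the threshold (limma adjusted p over all probe sets 0.371, 0.347 and 0.652). Where its probe sets lie relative to the deleted part is not known here, so they do not check the deletion. Of 15 measured markers of mandibular arch mesenchyme, 9 lay above the upper quartile of gene levels and 0 below the lower quartile. In that list Dlx2, a homeobox gene of the arches, rose (0.56, limma adjusted p = 0.0253), where 0.835% of all genes were called higher. Pitx1, a homeobox gene of the mandibular arch, fell (-1.10, limma adjusted p = 0.0031), where 1.31% of all genes were called lower. The other 13 did not pass, while 8 of the 15 had an unadjusted p under 0.05 in limma and the median log2 fold change was -0.08.

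Sall4 was higher in every mutant arch than in any control arch. The brightest probe set (1424152_at) read 10.23, 10.01, 9.93 and 10.76 in the 4 mutants, against 7.91, 8.30, 8.39 and 8.84 in the 4 controls, as log2 values. The lowest mutant, replicate 3, lay 1.09 above the highest control, replicate 4, so the groups did not overlap; 3.27% of all genes were separated in this direction. The means were 10.23 ± 0.373 in mutants and 8.36 ± 0.382 in controls (SD, n = 4 each), a 3.65-fold rise. The log2 fold change was 1.87 ± 0.219 (SE), with a 95% interval of 1.38 to 2.36 and a limma adjusted p of 0.0043 over all genes. Sall4 had the 8th largest rise among the 18194 genes, and it was the 1 member of 4 past the adjusted p threshold of 0.05, which 2.14% of all genes passed (0.835% higher and 1.31% lower in mutants). In bulk tissue, more cells that express a gene and more RNA per cell cannot be told apart.

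The further Sall4 probe set (1424153_s_at) also rose. It read 7.73, 7.07, 7.40 and 7.69 in mutants, against 6.16, 6.39, 6.60 and 5.77 in controls, again with no overlap. Its log2 fold change was 1.24 ± 0.192 (SE; limma adjusted p = 0.0221 over all probe sets). The suffix in its name marks a probe set whose probes can match more than 1 transcript. The probe sets differed in where they put the control arrays, since control replicate 4 was the highest control on the brightest probe set and the lowest on the other. The log2 value of the brightest minus that of the other was 2.76 ± 0.287 in mutants and 2.13 ± 0.629 in controls (SD, n = 4 each). Over the mean of both probe sets Sall4 rose by 1.56 (limma adjusted p = 0.00215).

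**Figure D1:**
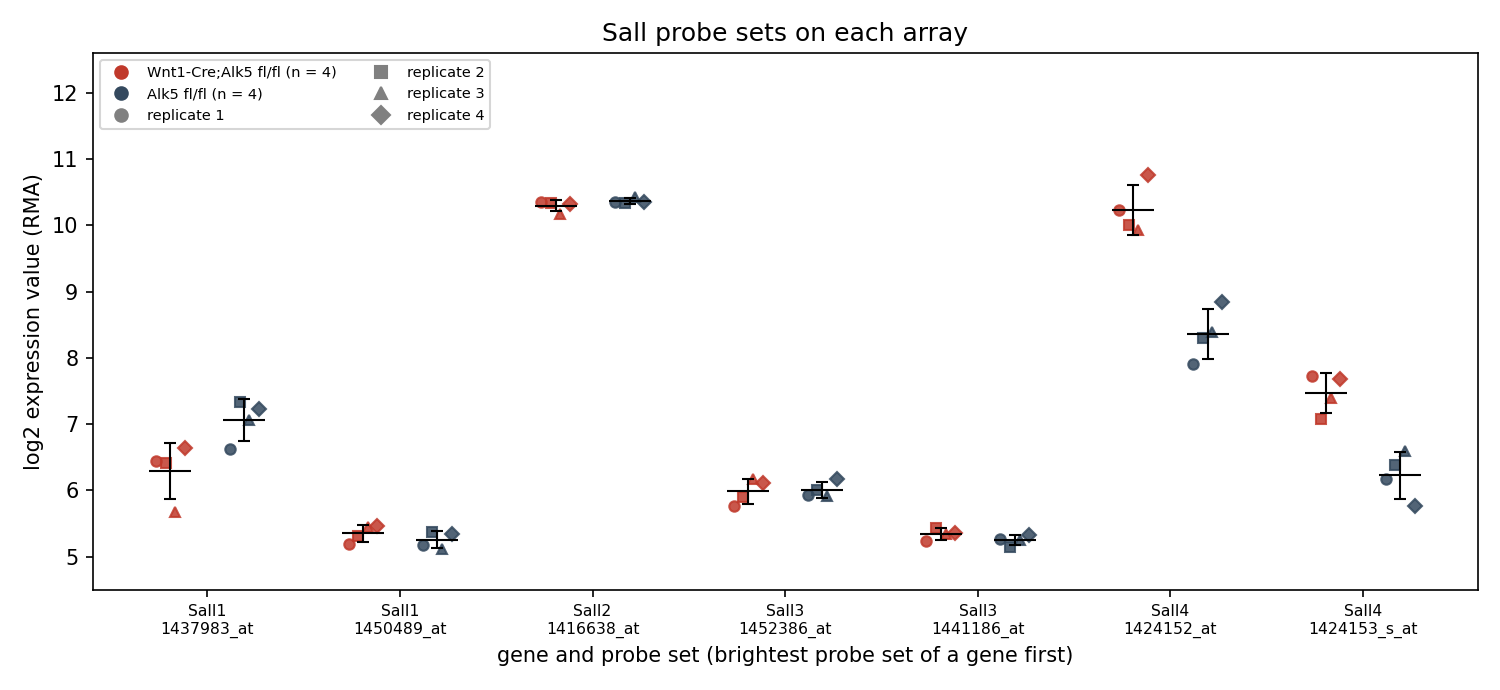
Log2 expression value (y axis) of the 7 Sall probe sets (x axis), with mutant arrays in red at the left of each pair and control arrays in dark blue at the right; marker shapes stand for replicate numbers, and horizontal bars with whiskers for the mean ± SD of 4 arrays. Both Sall4 probe sets separate the groups, the brightest Sall1 probe set overlaps only where mutant 4 meets control 1, and the groups overlap on the other 4.

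Sall1 was lower in mutants on its brightest probe set, but the difference did not pass the test. That probe set (1437983_at) read 6.44, 6.41, 5.67 and 6.64 in mutants, against 6.62, 7.34, 7.06 and 7.24 in controls. Mutant replicate 4 lay just above control replicate 1, so the groups overlapped by 1 array on each side, and the lowest value belonged to mutant replicate 3, the array that stood apart. The means were 6.29 ± 0.425 and 7.06 ± 0.317 (SD, n = 4 each) for mutants and controls, a log2 fold change of -0.77 ± 0.218 (SE) with a 95% interval of -1.26 to -0.28 and a limma adjusted p of 0.125. Without mutant replicate 3 the log2 fold change was -0.57 (limma adjusted p = 0.109). With arrays weighted by their quality it was -0.58 and passed (limma adjusted p = 0.0402), the single alternative of 16 in which Sall1 did.

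The other Sall1 probe set (1450489_at) did not share this difference. It was dim and read 5.19 to 5.47 in mutants, against 5.11 to 5.38 in controls, with a log2 fold change of 0.10 and a 95% interval of -0.11 to 0.31. The brightest probe set exceeded it by 0.94 ± 0.476 in mutants and 1.81 ± 0.249 in controls on the log2 scale (SD, n = 4 each). Over the mean of both, Sall1 was at -0.34 (limma adjusted p = 0.280).

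Sall2 had its 1 probe set (1416638_at) among the brighter ones of the arrays, and its values were close in both groups. It read 10.35, 10.33, 10.17 and 10.32 in mutants, against 10.35, 10.34, 10.43 and 10.35 in controls. The groups overlapped, and mutant replicate 3 was the lowest array. The log2 fold change was -0.07 ± 0.0689 (SE; limma adjusted p = 0.71), and the 95% interval of -0.23 to 0.08 ends at a fall of 1.17-fold and a rise of 1.06-fold.

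Sall3 was dim on both of its probe sets. The brighter (1452386_at) lay at the 29.1 percentile of gene levels and read 5.77, 5.90, 6.18 and 6.11 in mutants, against 5.93, 6.00, 5.91 and 6.17 in controls. The range of the mutants covered that of the controls, and the log2 fold change was -0.02 ± 0.106 (SE; 95% interval -0.25 to 0.22; limma adjusted p = 0.967). The other probe set (1441186_at) read 5.23 to 5.44 in mutants and 5.14 to 5.32 in controls, at a log2 fold change of 0.10 (95% interval -0.07 to 0.27). The sign of the Sall3 difference therefore depended on the probe set, and RMA compresses differences at such levels.

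**Figure D2:**
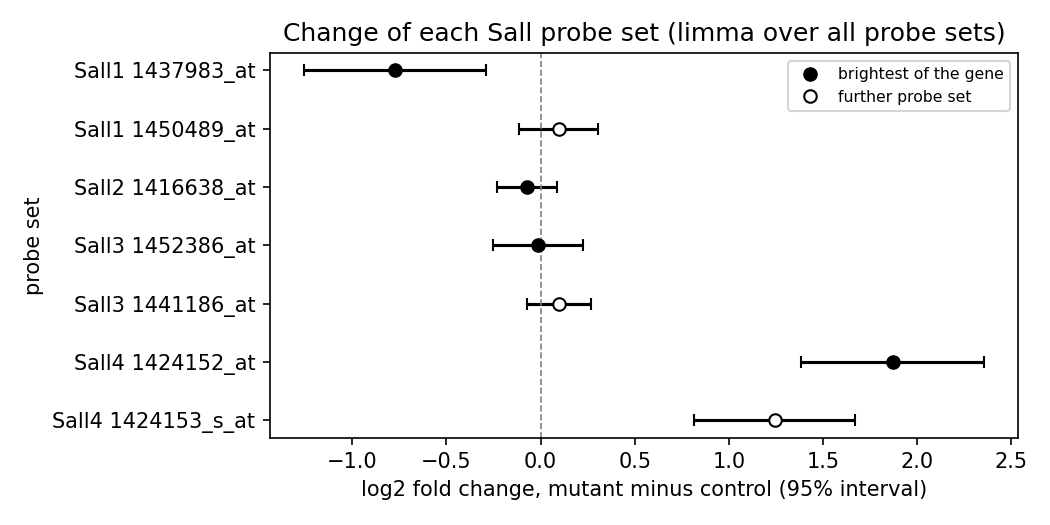
Log2 fold change of each Sall probe set, mutant minus control (x axis, with the 95% interval from limma over all probe sets), for the 7 probe sets (y axis); filled points are the brightest probe set of a gene and open points the further one. The intervals of the Sall4 probe sets start at 1.38 and 0.81, that of the brightest Sall1 probe set lies below 0, and the other 4 include 0.

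Whether Sall4 changed differently from its relatives was tested within arrays, on the log2 value of Sall4 minus that of the other gene. The level of such a difference depends on the probes, and only its change between groups is read. Against Sall1 the difference ran from 3.60 to 4.26 in mutants and from 0.97 to 1.61 in controls. The 2 genes thus moved apart by 2.64 ± 0.199 (SE) on the log2 scale. This includes the -0.77 of the brightest Sall1 probe set, which did not pass and which the other Sall1 probe set did not share. Against Sall2 the shift was 1.94 ± 0.255, and against Sall3 it was 1.88 ± 0.246. Over the mean of each gene's probe sets the shifts from Sall1, Sall2 and Sall3 were 1.89, 1.63 and 1.52. In each of these 3 pairs the groups did not overlap, and the exact two-sided permutation p was 0.0286, the smallest that 70 relabelings can give, and 0.0286 also after adjustment over the 3 pairs. Sall4 had entered the comparison as the member with the large change, and all 3 pairs share its values. The small p was therefore largely set by that choice and adds no support to the rise of Sall4.

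Of 15 measured subunits of NuRD, the complex through which Sall proteins repress genes, Chd3 alone passed the test and was lower, where 1.31% of all genes were called lower. The median log2 fold change was -0.04 beside -0.01 over all genes. Chd3 encodes an ATP-driven remodeller that can stand in the complex in place of Chd4. Chd3 read 9.50, 9.72, 9.14 and 9.28 in mutants, against 10.13, 10.36, 10.31 and 9.85 in controls, with no overlap, a separation that 7.02% of all genes showed in this direction. Its log2 fold change was -0.75 ± 0.148 (SE; limma adjusted p = 0.0356). The call was lost without mutant replicate 1 or 4 or control replicate 1, 2 or 3, with a limma adjusted p of up to 0.135, and in the fit over all probe sets (0.0543). The other 14 subunits lay between -0.23 and 0.10, and 10 of the 15 were in the upper quartile of gene levels. Mta3 (-0.23) and Mbd2 (-0.19), named after their values were seen, were also lower in mutants without overlap. Neither passed (limma adjusted p = 0.392 and 0.445).

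Genes of the early embryo and of pluripotent cells, the setting in which Sall4 is best known, included 2 that rose and 1 that fell. The other 20 of the 23 with a probe set missed the threshold, where 2.14% of all genes passed, and the median log2 fold change was 0.07. In limma 9 of the 23 had an unadjusted p under 0.05. The rises were Lin28a, an RNA-binding protein that blocks let-7 maturation, and Trim71, a stem-cell ubiquitin ligase and RNA-binding protein. Lin28a read 7.85, 7.17, 6.89 and 8.36 in mutants, against 4.95, 4.71, 4.96 and 5.41 in controls, a log2 fold change of 2.56 (limma adjusted p = 0.004), or 1.46 over the mean of its probe sets. Trim71 had a log2 fold change of 2.11 (limma adjusted p = 0.00406). The mutants were above all controls for both genes, as for Sall4. Klf4, a Krueppel-like factor of stem cells and of epithelia, fell, with 9.40, 9.50, 8.72 and 8.87 in mutants against 10.52, 10.48, 10.38 and 10.12 in controls (log2 fold change -1.25 ± 0.178 SE; limma adjusted p = 0.00976). The other 20 ranged from -0.83 for Tbx3 (limma adjusted p = 0.0688) to 0.52 for Dnmt3b (limma adjusted p = 0.0696). The groups did not overlap for Tbx3, as in 7.02% of all genes for falls, nor for Dnmt3b, as in 3.27% for rises. Of the 23, 10 lay below the lower quartile of gene levels, among them Pou5f1 and Nanog, core factors of embryonic stem cells. Sox2, which works with them there and also in other tissues, lay at the 69.7 percentile. Pou5f1, Nanog, Sox2, Tbx3 and Dnmt3b are named after their values were seen.

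Zbtb16 was the 1 gene to pass among 10 that work beside Sall4 in the limb, where 0.835% of all genes were called higher. It encodes the zinc finger factor Plzf, which patterns the limb in mice and which, in human cells, is degraded through cereblon in the presence of thalidomide, as SALL4 is. Zbtb16 read 7.94, 8.06, 7.86 and 7.96 in mutants, against 7.20, 7.04, 7.18 and 7.38 in controls. The mutants lay within a narrow band above all controls, a separation seen in 3.27% of all genes, and the log2 fold change was 0.75 ± 0.0855 (SE; limma adjusted p = 0.00386). The other 9 ranged from -0.47 to 0.37 and did not pass. They include Tbx5, a regulator of Sall4 in the mouse limb, and the limb signals Fgf10, Shh and Fgf8. Irx5 (-0.45) and Hand2 (-0.27), named after their values were seen, were lower in mutants without overlap, as in 7.02% of all genes. In limma 4 of the 10 had an unadjusted p under 0.05, and the median of the list was -0.12.

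Among 6 genes reported elsewhere as targets of Sall proteins, 1 passed the test, where 1.31% of all genes were called lower, and the list's median log2 fold change was -0.11. It was Kif26b, a kinesin-family gene that Sall1 activates in the mouse kidney, and it fell. Kif26b read 10.92, 11.08, 10.74 and 10.79 in mutants, against 11.27, 11.61, 11.51 and 11.23 in controls. Its groups did not overlap, as in 7.02% of all genes in this direction, but the log2 fold change of -0.52 ± 0.111 (SE) passed narrowly (limma adjusted p = 0.0458). The call was lost without mutant replicate 1, 3 or 4 or control replicate 1, 2 or 3 (limma adjusted p up to 0.170), with the arrays centred on their medians (0.0569) and in the fit over all probe sets (0.0753). The other 5 lay between -0.18 and 0.29.

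**Figure D3:**
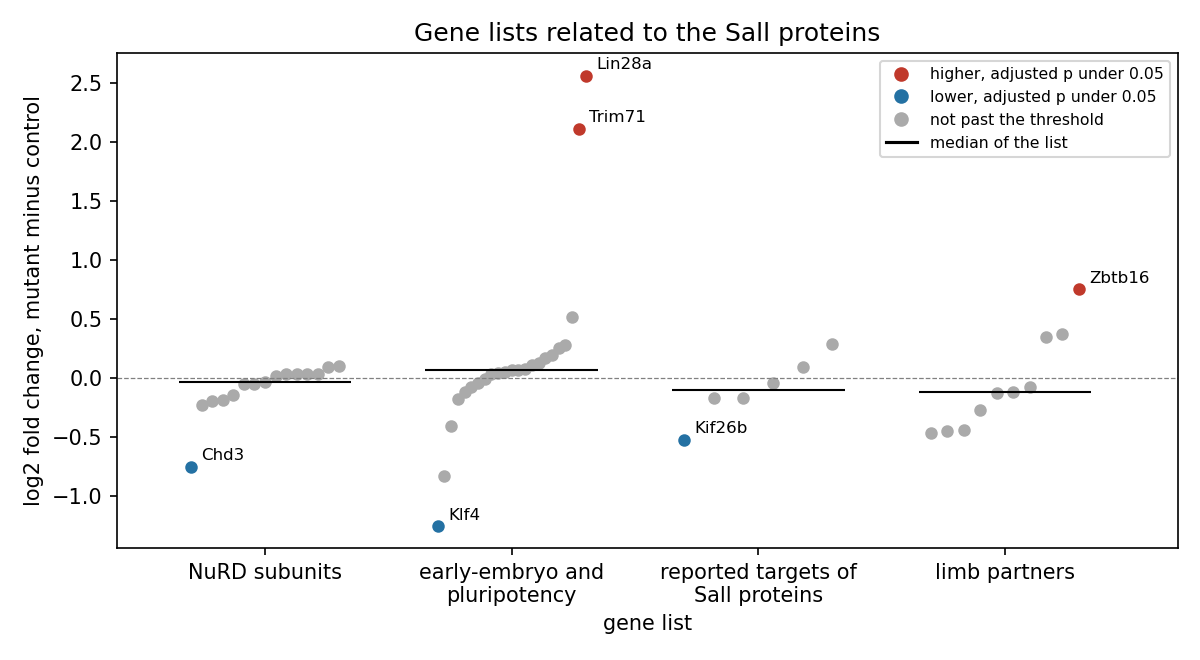
Log2 fold change, mutant minus control (y axis), of each measured gene in 4 lists (x axis): NuRD subunits, early-embryo and pluripotency genes, reported targets of Sall proteins and limb partners of Sall4; red points rose and blue points fell at a limma adjusted p under 0.05, grey points did not pass, and black lines are list medians. The medians lie between -0.12 and 0.07, and the 6 genes that passed are named.

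The 5 genes whose profile over the 8 arrays lay closest to that of Sall4 were Eno3, Trim71, Mogat2, Prtg and Trpm1. Closeness was the root mean square difference of log2 values after each gene's own mean was subtracted. It was 0.15 for Eno3, the muscle form of enolase, and also 0.15 for Trim71. It was 0.21 for Mogat2, an acyltransferase of fat synthesis, 0.23 for Prtg, the immunoglobulin superfamily receptor protogenin, and 0.29 for the cation channel gene Trpm1. Eno3 read 11.09, 10.98, 10.82 and 11.26 in mutants, against 8.98, 9.14, 9.24 and 9.71 in controls. Trim71 read 9.31, 9.13, 8.94 and 9.96 in mutants, against 6.89, 7.04, 7.16 and 7.81 in controls. In both genes, as in Sall4, mutant replicate 4 was the highest mutant and mutant replicate 3 the lowest, while control replicate 4 was the highest control and control replicate 1 the lowest.

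These genes were picked for likeness, so such a shared order follows from the choice. As a background, replicate 4 was the highest of its group among both mutants and controls in 9.01% of all genes and in 31 of the 152 genes that rose. This count leaves out which arrays were lowest, so it covers a looser pattern than the order above. The log2 fold changes of the 5 ranged from 1.39 for Trpm1 to 2.24 for Prtg, with limma adjusted p-values of 0.00129 for Eno3, 0.00406 for Trim71, 0.0074 for Mogat2, 0.00375 for Prtg and 0.019 for Trpm1. Trpm1 lost its call without mutant replicate 1 or 4 or control replicate 2 or 3, with a limma adjusted p of up to 0.0724, and was at 0.54 over the mean of its probe sets.

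**Figure D4:**
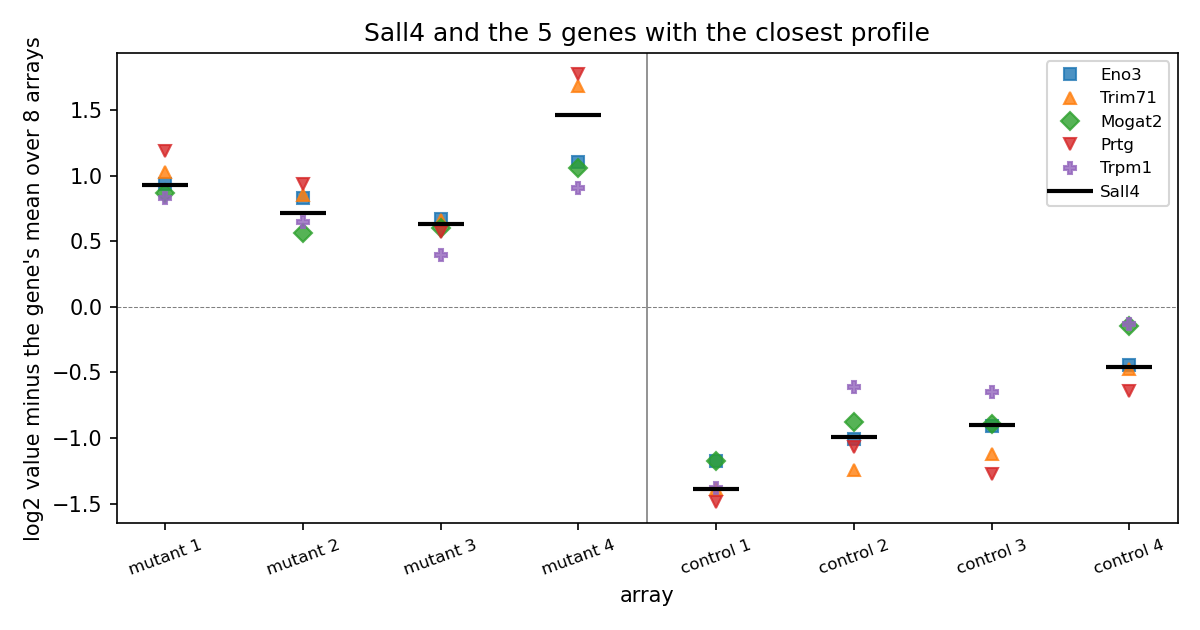
Log2 value minus the gene's mean over 8 arrays (y axis) for each mutant and control array (x axis), for Sall4 (black bars) and the 5 genes closest to it (coloured symbols). All 6 genes lie above 0 in the 4 mutant arrays and below 0 in the 4 control arrays, and control 4 lies nearest to 0 among the controls.

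Markers of cell types in which Sall genes are known were measured beside them. Of all genes, 2.14% passed the limma threshold, and at least 2364 of the 18194 had an unadjusted p under 0.05. In lists of 6 to 10 genes, 0 passing and 0 to 2 at such a p therefore do not tell a list from other genes. Germ cell markers, relevant to Sall4, gave 0 of 6 past the limma threshold, and 0 at an unadjusted p under 0.05. Among them, 3 (Dazl, Ddx4 and Prdm14) lay below the lower quartile of gene levels, and the mean level of the list was 5.70 to 5.81 in mutants and 5.52 to 5.70 in controls. Of 10 markers of neural tube and brain, 0 passed in limma, 2 had an unadjusted p under 0.05 and 5 were below the lower quartile, with a mean level of 5.44 to 5.51 in mutants and 5.13 to 5.46 in controls. The marker that differed most, Emx2, read 9.00 to 9.49 in mutants, against 7.96, 8.05, 7.89 and 5.95 in controls. The groups did not overlap, as in 3.27% of all genes in this direction, and control replicate 4 alone gave the low end. The log2 fold change of Emx2 was 1.76 (limma adjusted p = 0.0681), and the gene is also known outside the brain. The list medians were 0.15 and 0.03, and the part of these cells in the rise of Sall4 was not tested.

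Most macrophage markers were called higher in mutants, as Sall4 was, and only this direction between the groups is compared. Of 14 markers, 10 were called higher and 4 missed the threshold, where 0.835% of all genes were called higher. In limma 13 of the 14 had an unadjusted p under 0.05, and the median log2 fold change was 1.03. The mean level of the list was 7.78 to 8.24 in mutants and 7.04 to 7.18 in controls. The log2 of the summed level was 12.07 to 12.51 in mutants and 11.19 to 11.31 in controls, and 0 markers lay below the lower quartile. Of 6 microglia markers, the population in which Sall1 is known, Gpr34 (0.90) and Fcrls (0.73) rose, where 0.835% of all genes were called higher. Tmem119 (-0.80), which bone-forming cells also express, fell, where 1.31% of all genes were called lower. P2ry12 (0.37), Siglech (0.09) and Olfml3 (-0.29) did not pass. In limma 5 of the 6 had an unadjusted p under 0.05, beside at least 2364 of the 18194 genes. P2ry12 and Gpr34, among the defining markers of microglia, were below the lower quartile. The part of these cells in the Sall1 and Sall4 values was not tested.

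Among other cell types of the arch, of 9 epithelial markers 0 passed in limma, where 2.14% of all genes passed. In that list 1 had an unadjusted p under 0.05, beside at least 2364 of the 18194 genes. The epithelial median was -0.23, with a mean level of 9.01 to 9.74 in mutants and 9.55 to 9.93 in controls. Of 8 endothelial markers 0 passed in limma and 0 had an unadjusted p under 0.05, with a median of -0.05. Of 8 muscle precursor markers 0 passed and 1 had such a p, with a median of 0.03. Of 9 neuronal markers Tubb3 fell (-1.67, limma adjusted p = 0.0126), where 1.31% of all genes were called lower. In that list 2 had an unadjusted p under 0.05, and the median was -0.29. Of 6 platelet markers Ppbp (-0.97) and Pf4 (-0.77) fell, beside the same 1.31% of all genes. These 2 alone had an unadjusted p under 0.05, and the list median was -0.26. Of 7 erythroid markers 0 passed and 2 had an unadjusted p under 0.05, with a median of -0.13. Of 5 Hox genes that mark the arches behind the mandibular one, Hoxb2 rose (0.83, limma adjusted p = 0.0104), where 0.835% of all genes were called higher. The other 4 did not pass, and Hoxa2 and Hoxd3 were below the lower quartile. In lists of 7 to 9 genes, 0 passing and 0 to 2 at an unadjusted p under 0.05 do not tell a list from other genes. The part of any list in this paragraph in the Sall4 rise was not tested.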

How the data were processed

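The deposited values were log2 expression per probe set for 8 Affymetrix arrays. The authors made them with RMA, per the submitters' processing notes (no version is named); RMA subtracts background, puts all arrays on a common distribution and combines a probe set's probes. Total RNA was column-extracted and labelled with biotin, per the labels' protocols. The platform annotation gave 1 symbol for 34958 probe sets, several for 932 and none for 9211, and the last 2 kinds were not named. The 4 members matched the mouse RefSeq gene table by Entrez identifier. Genome positions and sequences were not used here.

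Mutants were compared with controls in limma 3.58.1 (R 4.3.3; lmFit and eBayes, no covariates), adjusted by Benjamini-Hochberg over 18194 genes, with a threshold of 0.05. Further probe sets were tested in a fit over all 45101. Members and lists were chosen with earlier results of these data known. Named genes were the members, list members past the threshold (up to 6 a list) and the 5 closest profiles. Some listed genes were not analysed here. In 10 simulated runs over 18194 genes with 200 changed, 49.0% of changes of 0.5, 90.9% of 1 and 99.4% of 2 on the log2 scale were recovered, and 4.95% of calls were false. The simulated noise was normal, with each gene's own spread, independent between genes and without a deviating array. These rates therefore need not hold for the real arrays. Alternatives were the replicate block, other probe set choices, a filter on dim genes, renormalization, array weights, a robust variance trend and leaving out each array.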

Additional observations from a re-analysis of the deposited data

Results flagged for a closer look

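Among 40 groups of 4 arrays examined, covering the Sall probe sets, the other named genes and the differences between members, 2 held an array far from the other 3, and chance alone flags about 1 in 20. Both belonged to Sall2, whose spread is small: mutant replicate 3 read 10.17, below the other mutants at 10.32 to 10.35, and control replicate 3 read 10.43, above the other controls at 10.34 to 10.35.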

How the results depend on the processing

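Sall4 kept its direction and its call under all 16 alternatives, with log2 fold changes of 1.56 to 2.03. Its differences in change from Sall1, Sall2 and Sall3 stayed above 0 under 9 alternatives each, at 1.52 or more; their permutation p cannot fall below the value reported and says nothing on stability. Sall1 passed under array weights alone (-0.58). Sall3, never past the threshold, was at 0.0400 over the mean of its probe sets and at -0.0789 to 0.0576 when single arrays were left out, with the sign turned without mutant 1, mutant 2 or control 4. The number of genes past the threshold, 390, was 620 after a further quantile normalization, 1356 with array weights and 104 to 618 with single arrays left out (618 without mutant 3, 104 without control 3). Over all arrays falls outnumbered rises, 238 to 152, but rises outnumbered falls without mutant 3 (328 to 290), mutant 4 (68 to 40) or control 1 (85 to 66), 2 (64 to 45) or 3 (60 to 44). With single arrays left out the NuRD list had 0 to 1 members past the threshold and the target list 0 to 1. The pluripotency list had 5 when the variance was fitted robustly with a trend. The alternatives for further named genes were added after the data were seen. The cause of these shifts was not tested.

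The samples of both groups are numbered 1 to 4, but the deviations of same-numbered samples from their group means correlated at 0.03, 0.0019, -0.12 and 0.41, so the numbers were not taken as pairs. With the number as a block, 293 genes passed, the target list had 0 (Kif26b at an adjusted p of 0.0538, limma) and Sall4 an adjusted p of 0.00279 (limma). Mutant replicate 4 was the single mutant that correlated best with its own number.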
